A study of Homo sapiens with 11 samples.

Results

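The miR-181 family was examined as 6 mature miRNAs: hsa-miR-181a-5p, hsa-miR-181a-3p, hsa-miR-181a-2-3p, hsa-miR-181b-5p, hsa-miR-181c-5p and hsa-miR-181c-3p. The members were taken by family name, with earlier results of these data known. They are 6 of the 2576 mature miRNAs in the count tables. Small RNA was sequenced from SH-SY5Y cells, a neuroblastoma subline of SK-N-SH that takes on a neuron-like form in all-trans retinoic acid (ATRA), and in all 11 libraries the cells had received ATRA at 10 µM over 7 days. In co-treatment, 10 µM H2O2 was present during those 7 days (3 libraries, against 3 controls differentiated without it), whereas in pre-treatment 10 µM H2O2 was given for 72 h before ATRA and then removed (3 libraries, against 2 controls). The model is a tumour line that can keep epithelial-like cells in culture, and the methods describe the replicates as biological.

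A miRNA gene is transcribed into a hairpin, and cutting the hairpin leaves a duplex of the 5′ side (the 5p arm) and the 3′ side (the 3p arm). Commonly the strand kept by Argonaute is the more abundant of the pair, and it finds its target mRNAs mainly through its seed, bases 2 to 8. The miR-181 hairpins lie in 3 genomic clusters, and their 5p arms are best known for tuning T-cell receptor signalling and for targets in apoptosis and mitochondrial turnover, while miR-181 is also expressed in the brain.

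The 6 mature sequences are shown because the 5p members carry 1 common seed and the 3p members carry a different seed each. They are RefSeq sequences, written 5′ to 3′ with the seed in capitals.
hsa-miR-181a-5p: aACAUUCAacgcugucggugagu
hsa-miR-181b-5p: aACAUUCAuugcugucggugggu
hsa-miR-181c-5p: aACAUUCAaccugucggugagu
hsa-miR-181a-3p: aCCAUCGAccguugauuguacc
hsa-miR-181a-2-3p: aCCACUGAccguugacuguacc
hsa-miR-181c-3p: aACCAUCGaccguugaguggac
With positions counted from 1 at the 5′ end, hsa-miR-181a-5p differs from hsa-miR-181b-5p at A9U, C10U and A21G, all outside the seed. hsa-miR-181a-3p and hsa-miR-181a-2-3p, the 3p arms of the 2 hairpins that give the same hsa-miR-181a-5p, differ at U5C, C6U and U16C, so that 2 of the 3 differences lie inside the seed. The seed letters of hsa-miR-181a-3p also occur in hsa-miR-181c-3p, starting at base 3, which is 1 base out of register. Among the mature miRNAs of the reference, 5 share the seed ACAUUCA, and of these hsa-miR-181d-5p also had counts here while hsa-miR-4262 had none in any library.

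On GRCh37, hsa-miR-181a-5p lies at chr1:198828237-198828259 (minus strand) within MIR181A1 and at chr9:127454759-127454781 (plus strand) within MIR181A2. hsa-miR-181b-5p lies at chr1:198828054-198828076 within MIR181B1 and at chr9:127456004-127456026 within MIR181B2, on the same strands. hsa-miR-181a-3p (chr1:198828198-198828219) and hsa-miR-181a-2-3p (chr9:127454797-127454818) each come from 1 locus. The chromosome 1 hairpins are intronic in the lncRNA gene MIR181A1HG, and those of chromosome 9 are intronic in the lncRNA gene MIR181A2HG and, on the opposite strand, in NR6A1. hsa-miR-181c-5p (chr19:13985539-13985560) and hsa-miR-181c-3p (chr19:13985577-13985598) are the arms of MIR181C, which sits with MIR181D in an intron of NANOS3 transcripts.

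Library totals ranged from 5343953 to 8927582 counts (median 7425640), and correlations of log2 levels between replicates were 0.980 to 0.993 except between the pre-treatment controls, at 0.943. Control 1 of pre-treatment stood apart in marker miRNAs of other cell types. Its 6 epithelial markers present in the table summed to 185 CPM (counts scaled to a common library total), against 42.2 to 54.1 in the other 10 libraries, with hsa-miR-205-5p reaching 1007 counts. Its 6 white blood cell markers summed to 127 CPM, against 20.9 to 41.8. All 7 neuronal markers were in the table and hsa-miR-137 dominated their sum, but hsa-miR-124-3p, a defining neuronal miRNA, had 0 to 7 counts and was at 0 in 5 libraries. The neuronal sum was 31647 to 34154 CPM in co-treatment controls and 15653 to 19131 with H2O2, and 12451 to 22169 in pre-treatment controls and 29942 to 37600 with H2O2. In bulk samples, fewer cells of a type and less RNA per cell cannot be told apart.

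The family's deposited counts were dominated by a 3p arm. hsa-miR-181a-2-3p, from MIR181A2, took between 67.4% and 89.2% of the 6 members' counts in every library and stood between the 96.6th and 97.6th percentile of detected miRNAs in the 4 groups. hsa-miR-181c-3p followed in every group, at 9.26% to 14.5% of the members' counts in co-treatment and 5.50% to 18.5% in pre-treatment. The 5p members hsa-miR-181c-5p and hsa-miR-181b-5p came next, and their ranges overlapped in 3 of the 4 groups. The exception was the pre-treatment controls, where hsa-miR-181c-5p (177 and 257 CPM) lay above hsa-miR-181b-5p (75.1 and 151 CPM). hsa-miR-181a-3p was lower still at 13.3 to 40.8 CPM. hsa-miR-181a-5p was the lowest member in every group, at no more than 1.54 CPM. Here and below, CPM was scaled by TMM (trimmed mean of M-values) over all 11 libraries. It allows levels of mature miRNAs of nearly equal length to be set side by side, although ligation and amplification can favour some sequences and were not measured.

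**Figure D1:**
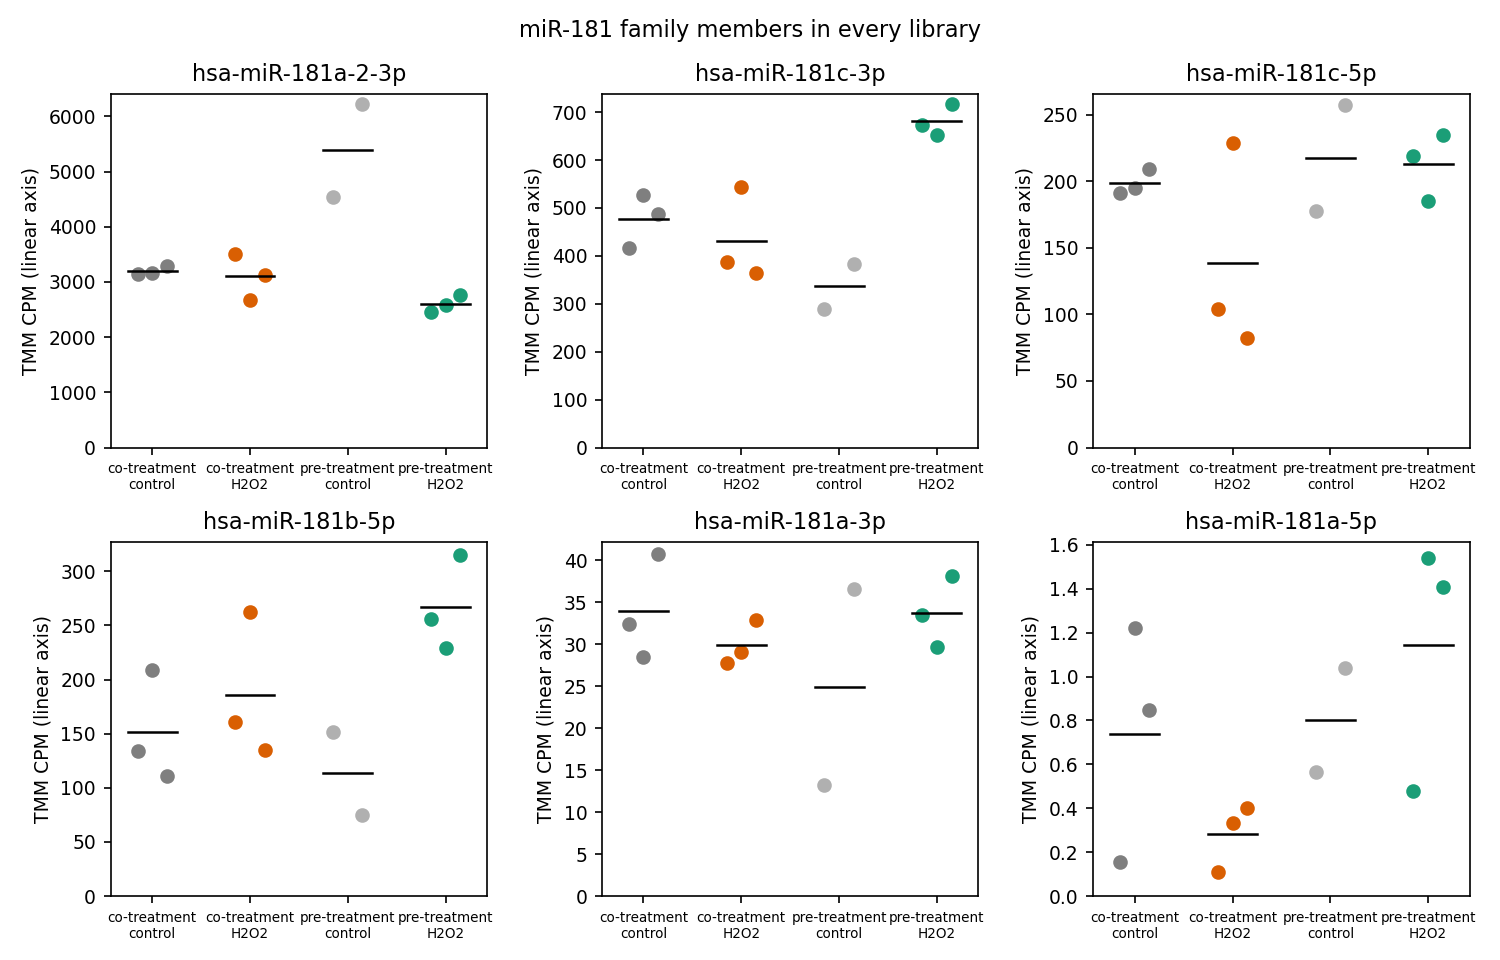
Level of each of the 6 members in every library (points, TMM CPM on linear axes that start at 0), with the group mean as a horizontal line, for co-treatment control (3), co-treatment H2O2 (3), pre-treatment control (2) and pre-treatment H2O2 (3). In pre-treatment, hsa-miR-181a-2-3p is lower in all H2O2 libraries than in both controls, while hsa-miR-181c-3p and hsa-miR-181b-5p are higher; in co-treatment the groups overlap for every member.

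hsa-miR-181a-5p, usually regarded as the guide strand of both miR-181a hairpins, had almost no counts. It had 1, 10 and 6 counts in co-treatment controls, 1, 2 and 3 with H2O2, 4 and 7 in pre-treatment controls, and 4, 11 and 10 with H2O2. In the same libraries hsa-miR-181a-2-3p had 15992 to 42024 counts and hsa-miR-181a-3p 94 to 289. The counts of hsa-miR-181a-5p overlapped between H2O2 and control in both experiments, and in 3 of the 11 libraries they did not exceed 2, below the 3 counts taken here as the detection limit. The 2 genomic copies of hsa-miR-181a-5p are identical over 28 bases, 1 before and 4 after the 23 bases of the mature sequence. The copies of hsa-miR-181b-5p, which had 507 to 2241 counts, are identical over 26 bases, 2 before and 1 after. How reads that align to both copies were counted is not given in the sources used here, and the part of this in either level was not tested, so that the levels of these 2 miRNAs and every ratio to hsa-miR-181a-5p are uncertain.

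In co-treatment, no member passed the test. The comparison asks whether H2O2 during differentiation altered the family, and 0 of the 5 members that entered the test were called, against 26.2% of all 790 miRNAs tested (10.6% raised and 15.6% lowered). A call needed an FDR (Benjamini-Hochberg adjusted p of edgeR's exact test) under 0.05 and an absolute log2FC above 0.6. At an unadjusted p under 0.05 the exact test, the quasi-likelihood test and DESeq2 also passed none of the 5, against 40.1% of all miRNAs with the exact test. The groups overlapped for all 5, whereas 41.6% of all miRNAs tested did not overlap. The median log2FC of the 5 members was −0.18, beside −0.04 over all miRNAs tested.

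Of the 5p members in co-treatment, hsa-miR-181b-5p was at 134, 209 and 111 CPM in controls and at 161, 262 and 134 CPM with H2O2. These groups overlapped, with a log2FC of 0.25 (SE 0.33, n = 3 and 3, FDR of the edgeR exact test 0.613). hsa-miR-181c-5p was at 191, 195 and 209 CPM in controls and at 104, 229 and 82.3 CPM with H2O2. The controls lay close together, whereas of the H2O2 libraries 2 fell below all controls and replicate 2 lay above all of them. The log2FC was −0.55 (SE 0.33, FDR of the edgeR exact test 0.221), and without H2O2 replicate 2 it became −1.02, which passed the test with an edgeR FDR of 0.00490. hsa-miR-181a-5p did not pass the filter on low counts in co-treatment and was not tested.

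The 3p members lay within the spread of the co-treatment replicates. hsa-miR-181a-2-3p was at 3137, 3168 and 3283 CPM in controls and at 3499, 2674 and 3125 CPM with H2O2, so that the H2O2 libraries spanned the controls (log2FC −0.07, SE 0.23, edgeR FDR 0.877). hsa-miR-181c-3p was at 417, 526 and 488 CPM in controls and at 387, 544 and 364 CPM with H2O2, again overlapping (log2FC −0.18, SE 0.27, edgeR FDR 0.681). hsa-miR-181a-3p was at 32.4, 28.5 and 40.8 CPM in controls and at 27.8, 29.1 and 32.9 CPM with H2O2 (log2FC −0.20, SE 0.26, edgeR FDR 0.627).

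In pre-treatment, hsa-miR-181a-2-3p fell to 0.465 times its control level and was the only member called, 1 of 6, against 15.3% of all 868 miRNAs tested (5.41% raised and 9.91% lowered). The comparison asks what remained after 72 h of H2O2 that ended before differentiation began. hsa-miR-181a-2-3p was at 4544 and 6224 CPM in controls and at 2448, 2586 and 2758 CPM with H2O2. All H2O2 libraries lay below both controls and close to one another. The log2FC was −1.10 (SE 0.27, n = 2 and 3), with an FDR of 0.0178 in the edgeR exact test. The edgeR quasi-likelihood test gave an FDR of 0.0590, under which no member was called and 1.96% of all miRNAs were. Leaving out any 1 of the H2O2 libraries also ended the call, with log2FC between −1.12 and −1.02. The log2FC was −1.31 without control 1 and −0.82 without control 2, and it stayed a call in either case (edgeR FDR 4.52e-11 and 0.000123), with a single control whose spread was taken from the H2O2 libraries.

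hsa-miR-181b-5p and hsa-miR-181c-3p were higher in every H2O2 library than in both controls of pre-treatment but missed the threshold in the exact test. Other tests divided: both missed it in the edgeR quasi-likelihood test of pre-treatment alone (FDR 0.0875 and 0.0805). Both passed with DESeq2 (FDR 0.0425 and 0.0207) and in 1 quasi-likelihood fit of both experiments (edgeR FDR 0.0466 and 0.0244). hsa-miR-181b-5p was at 151 and 75.1 CPM in controls and at 256, 229 and 315 CPM with H2O2. The controls lay further apart than the H2O2 libraries in proportion, and the log2FC was 1.21 (SE 0.36, a fold of 2.31) with an edgeR FDR of 0.0504. It was 1.77 without control 1 and 0.80 without control 2, and both passed (edgeR FDR 9.82e-09 and 0.00460), in fits that called 285 and 449 of all miRNAs against 133. Leaving out any 1 H2O2 library gave an edgeR FDR of 0.206 to 0.288. hsa-miR-181c-3p was at 290 and 384 CPM in controls and at 673, 651 and 718 CPM with H2O2, with little spread among the H2O2 libraries. Its log2FC was 0.96 (SE 0.28, a fold of 1.95) with an edgeR FDR of 0.0652. Control 1 carried the epithelial and white blood cell markers described above, and without it the log2FC of hsa-miR-181c-3p was 0.77 (edgeR FDR 0.00260). It was 1.22 without control 2 (edgeR FDR 2.01e-06), so that it passed when either control was left out, but the edgeR FDR was 0.248 to 0.277 without any 1 H2O2 library.

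The other members of pre-treatment overlapped between the groups. hsa-miR-181c-5p, the opposite arm of the hairpin that gives hsa-miR-181c-3p, was at 177 and 257 CPM in controls and at 219, 185 and 234 CPM with H2O2 (log2FC −0.08, SE 0.31, edgeR FDR 0.911). hsa-miR-181a-3p was at 13.3 and 36.6 CPM in controls and at 33.5, 29.7 and 38.1 CPM with H2O2 (log2FC 0.37, SE 0.48, edgeR FDR 0.717). Control 1 held the low value, and hsa-miR-181a-3p had a log2FC of −0.17 without control 1 and of 1.33 without control 2, the second of which passed the test (edgeR FDR 4.22e-05). hsa-miR-181a-5p, at 0.565 and 1.04 CPM in controls and 0.481, 1.54 and 1.41 CPM with H2O2, had a log2FC of 0.44 (SE 0.80, edgeR FDR 0.834). In all, 3 of the 6 members did not overlap between the groups, beside 46.0% of all miRNAs tested. The same 3 had an unadjusted p under 0.05 in the edgeR exact test, beside 28.6% of all miRNAs, and the members' median log2FC was 0.41, beside −0.19 over all miRNAs tested.

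**Figure D2:**
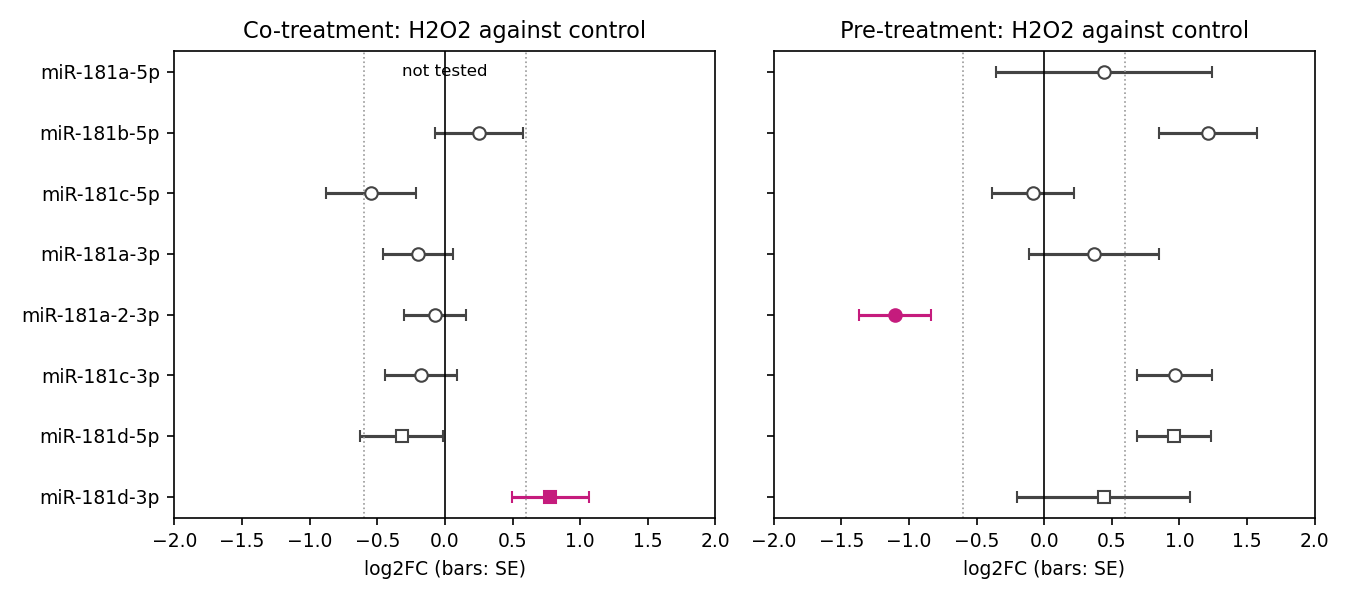
Log2 fold change of H2O2 against control in co-treatment (left) and pre-treatment (right) for the 6 members (circles) and both arms of miR-181d (squares); bars are standard errors from the quasi-likelihood fit, filled symbols passed the exact test (FDR under 0.05, absolute log2FC above 0.6) and dotted lines mark 0.6 on either side of 0. Only hsa-miR-181d-3p in co-treatment (0.78) and hsa-miR-181a-2-3p in pre-treatment (−1.10) are filled.

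Several sums of markers also differed between H2O2 and control. In pre-treatment the sums of the 7 neuronal, 4 red blood cell and 3 liver markers did not overlap between the groups, beside 46.0% of all single miRNAs tested. The red blood cell sum was 2.12 and 3.70 CPM in controls and 10.5, 14.7 and 15.04 CPM with H2O2. The liver sum was 487 and 698 CPM in controls and 1540 to 1824 CPM with H2O2. The part of these sums in the pre-treatment values of hsa-miR-181a-2-3p, hsa-miR-181b-5p and hsa-miR-181c-3p was not tested. In co-treatment the neuronal and epithelial sums did not overlap. The epithelial sum was 49.6 to 54.1 CPM in controls and 42.2 to 45.3 CPM with H2O2. Of the muscle markers, hsa-miR-133a-3p was at 0 in all 11 libraries, hsa-miR-133b had 0 to 1 counts and hsa-miR-206 had 4 to 31.

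The arms of MIR181C were compared as a ratio within each library, which does not depend on scaling. The ratio of hsa-miR-181c-3p to hsa-miR-181c-5p was 1.64 and 1.49 in pre-treatment controls and 3.07, 3.52 and 3.06 with H2O2. The groups did not overlap, and the log2 ratio was 0.64 ± 0.09 (SD, n = 2) in controls and 1.68 ± 0.11 (SD, n = 3) with H2O2, a difference of 1.04 or 2.05-fold. An exact two-sided permutation test gave p = 0.2, the smallest that 2 against 3 libraries allow. In co-treatment the ratio was 2.18, 2.70 and 2.33 in controls and 3.71, 2.38 and 4.42 with H2O2, with replicate 2 within the control range (log2 difference 0.50, exact two-sided permutation p = 0.2, where 0.1 is the smallest possible). With labels permuted within each experiment, a test added after the values were seen, the mean log2 difference was 0.77 (exact two-sided p = 0.02, Benjamini-Hochberg adjusted p = 0.12 over 6 ratios), so that it did not pass the correction. The arms differ in GC content (54.5% for 3p, 45.5% for 5p), for which the ratio was not corrected. With the GC trend removed, the co-treatment log2FC of the 3p and 5p arms were −0.24 and −0.15. They were −0.005 and −0.39 for the same miRNAs without the correction. In pre-treatment they were 0.78 and −0.69 with it, and 0.77 and −0.27 without.

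The 3p arms of the paralogous hairpins MIR181A2 and MIR181A1, on chromosomes 9 and 1, were compared in the same way. The ratio of hsa-miR-181a-2-3p to hsa-miR-181a-3p was 340 and 170 in pre-treatment controls and 72.9, 86.9 and 72.3 with H2O2, with no overlap (log2 difference −1.64, exact two-sided permutation p = 0.2, the smallest possible). It was 96.7, 111 and 80.3 in co-treatment controls and 126, 91.6 and 94.8 with H2O2, which overlapped (log2 difference 0.11, exact two-sided permutation p = 0.7). The pre-treatment difference was −1.14 without control 1 and −2.14 without control 2. Over the 6 ratios in both experiments, the smallest Benjamini-Hochberg adjusted p of the exact permutation tests was 0.48. The 4 ratios to hsa-miR-181a-5p rested on 1 to 11 counts of that miRNA and overlapped between groups in 7 of 8 comparisons.

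**Figure D3:**
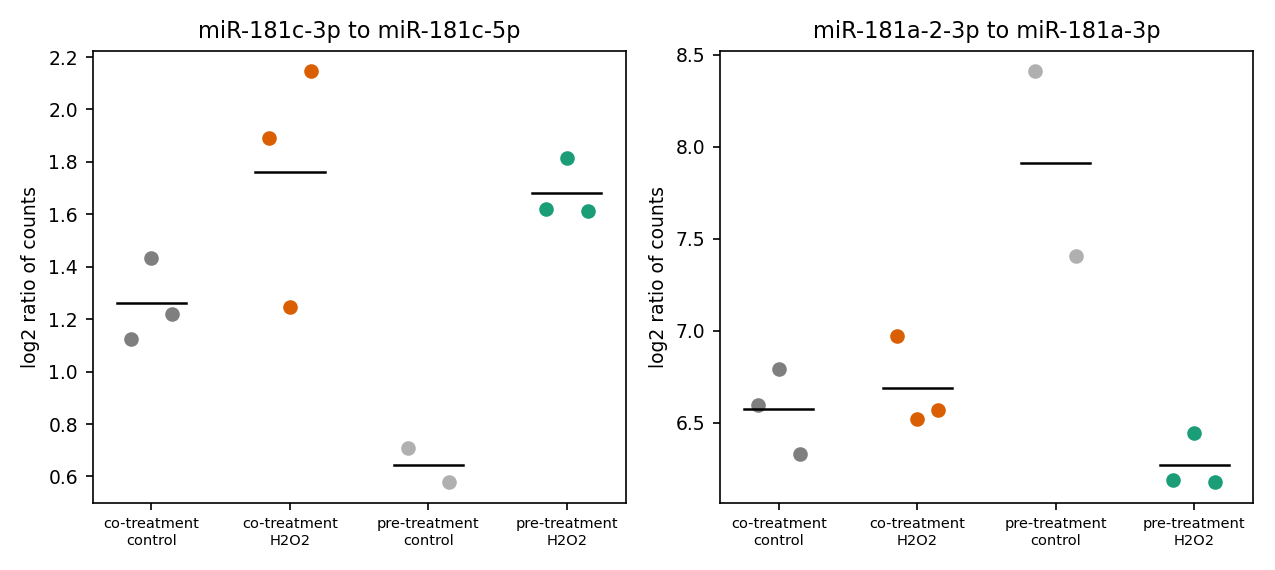
Log2 ratio of counts within each library (points; horizontal lines are group means) for hsa-miR-181c-3p to hsa-miR-181c-5p (left) and hsa-miR-181a-2-3p to hsa-miR-181a-3p (right). In pre-treatment the first ratio is higher and the second lower in all H2O2 libraries than in both controls, and in co-treatment both overlap.

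Summed by arm, the 5p members, which share a seed, were at 329 and 333 CPM in pre-treatment controls and at 475, 416 and 551 CPM with H2O2. The groups did not overlap (1.44-fold, exact two-sided permutation p = 0.2, the smallest possible). The 3p members summed to 4847 and 6645 CPM in pre-treatment controls and to 3154, 3267 and 3514 CPM with H2O2. This sum went the other way (0.583-fold, p = 0.2 in the same exact test), but it was mostly hsa-miR-181a-2-3p. The remaining 3p members, hsa-miR-181c-3p and hsa-miR-181a-3p, had a log2FC of 0.96 and 0.37, neither of which passed edgeR's exact test. The 5p sum leaves out hsa-miR-181d-5p, which has the same seed, and holds hsa-miR-181a-5p and hsa-miR-181b-5p, whose levels are uncertain as described above. In co-treatment both sums overlapped between the groups, with folds of 0.875 for the 5p sum (exact two-sided permutation p = 0.7) and 0.958 for the 3p sum (p = 0.6 in the same exact test).

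The make-up of the family's counts followed these values. hsa-miR-181a-2-3p took 87.8% and 89.2% of the members' counts in pre-treatment controls and 67.4% to 70.2% with H2O2. hsa-miR-181c-3p took 5.50% and 5.60% in those controls and 17.7% to 18.5% with H2O2, and hsa-miR-181b-5p took 1.08% and 2.93% and then 6.22% to 7.75%. In co-treatment, hsa-miR-181a-2-3p took 76.8% to 80.2% in controls and 71.5% to 83.7% with H2O2. The 6 members together were 0.528% and 0.647% of all counts in pre-treatment controls and 0.360% to 0.383% with H2O2, beside 0.380% to 0.438% in co-treatment controls and 0.378% to 0.424% with H2O2.

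**Figure D4:**
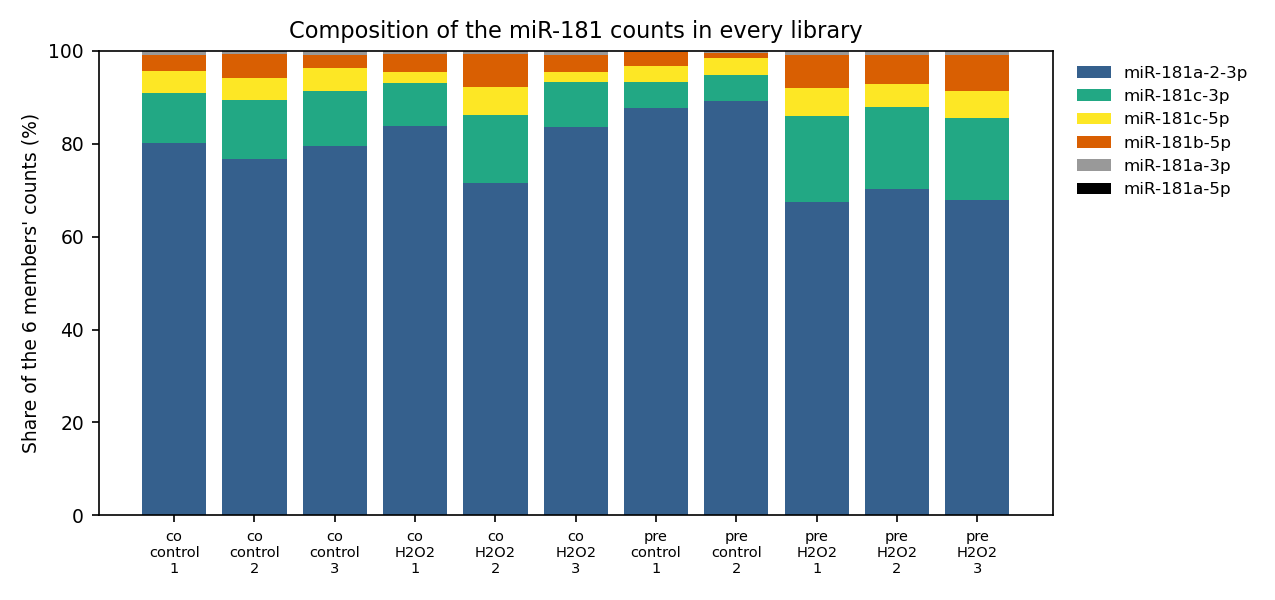
Share of each of the 6 members in their summed counts (stacked bars, percent) in each of the 11 libraries, grouped by experiment and treatment. hsa-miR-181a-2-3p fills 87.8% and 89.2% of the 2 pre-treatment controls and 67.4% to 70.2% of the pre-treatment H2O2 libraries.

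The response to H2O2 was then compared between the experiments in 1 quasi-likelihood fit of all 11 libraries. 2 of the 6 members passed, against 27.3% of all 945 miRNAs tested (12.9% higher and 14.4% lower in pre-treatment than in co-treatment). The response of hsa-miR-181a-2-3p in pre-treatment minus that in co-treatment was −1.01 on the log2 scale (SE 0.33, edgeR quasi-likelihood FDR 0.0319), and that of hsa-miR-181c-3p was 1.16 (SE 0.38, edgeR FDR 0.0321). hsa-miR-181b-5p had a difference of 0.94 (SE 0.52, edgeR FDR 0.198), hsa-miR-181c-5p of 0.49 (edgeR FDR 0.496) and hsa-miR-181a-3p of 0.62 (edgeR FDR 0.382). The last rested on the pre-treatment controls, at −0.14 without control 1 (edgeR FDR 0.834) and 1.54 without control 2 (edgeR FDR 0.00748). The difference of hsa-miR-181a-5p was 1.91 with an SE of 1.29 and an edgeR FDR of 0.273.

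The controls of the experiments were not at the same level for hsa-miR-181a-2-3p. Its controls were at 4544 and 6224 CPM in pre-treatment and at 3137 to 3283 CPM in co-treatment, a log2 difference of 0.75 (SE 0.24, edgeR quasi-likelihood FDR 0.0322), and it was the 1 member of 6 called, against 24.4% of all miRNAs (11.6% higher in pre-treatment). With H2O2 it was at 2448 to 2758 CPM in pre-treatment and at 2674 to 3499 CPM in co-treatment. hsa-miR-181c-3p was at 290 and 384 CPM in pre-treatment controls, below all co-treatment controls at 417 to 526 CPM, but did not pass (log2 difference −0.50, SE 0.28, edgeR FDR 0.203). That of hsa-miR-181a-3p was −0.44 (edgeR FDR 0.425), and −1.36 without pre-treatment control 2 (edgeR FDR 0.00586). Experiment and any batch between the experiments cannot be told apart. Without control 2 of pre-treatment, the control difference of hsa-miR-181a-2-3p was 0.50 (edgeR FDR 0.111) and its difference in response −0.75 (edgeR FDR 0.0520), and without control 1 the difference in response of hsa-miR-181c-3p was 0.78 (edgeR FDR 0.143). Each of these differences in response missed the threshold without any 1 of 7 libraries. They were co-treatment control 2, co-treatment H2O2 replicate 1 and the 3 pre-treatment H2O2 libraries for both miRNAs, with co-treatment control 1 and pre-treatment control 2 for hsa-miR-181a-2-3p (edgeR FDR 0.0513 to 0.0923) and co-treatment H2O2 replicate 3 and pre-treatment control 1 for hsa-miR-181c-3p (edgeR FDR 0.0554 to 0.143). The control difference of hsa-miR-181a-2-3p also missed it without any 1 of the co-treatment controls (edgeR FDR 0.0616 to 0.0828).

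The remaining family rows of the table came from MIR181D, the neighbour of MIR181C, and from MIR181B1. hsa-miR-181d-5p has the family seed and differs from hsa-miR-181b-5p by 1 base, C12U.
hsa-miR-181d-5p: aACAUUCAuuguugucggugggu
hsa-miR-181d-3p: cCACCGGGggaugaaugucac
In pre-treatment hsa-miR-181d-5p was at 126 and 125 CPM in controls and at 272, 219 and 263 CPM with H2O2. Its groups did not overlap, and its log2FC of 0.96 (SE 0.27, edgeR FDR 0.0681) missed the threshold, beside 0.96 for hsa-miR-181c-3p of the same cluster. After a correction for the GC content of the mature sequence these became 0.15 and 0.78, from 0.73 and 0.77 for the same miRNAs without the correction. In co-treatment hsa-miR-181d-5p was at 109 to 162 CPM in controls and 77.9 to 161 CPM with H2O2 (log2FC −0.32, edgeR FDR 0.490), and the difference in response was 1.28 (SE 0.44, edgeR quasi-likelihood FDR 0.0412, or 0.0732 with library size in place of TMM). It missed the threshold in 8 of 11 fits that left out 1 library (edgeR FDR 0.0631 to 0.159), all except those without co-treatment control 3, co-treatment H2O2 replicate 2 or pre-treatment control 2. hsa-miR-181d-3p was the 1 family row raised in co-treatment, at 11.3, 16.8 and 14.3 CPM in controls and 27.5, 22.7 and 24.2 CPM with H2O2. Its log2FC was 0.78 (SE 0.29, edgeR exact test FDR 0.0438, edgeR quasi-likelihood FDR 0.0570). In pre-treatment its controls were at 30.2 and 5.04 CPM, on either side of the H2O2 libraries at 22.9 to 24.9 CPM (log2FC 0.44, edgeR FDR 0.734, but 2.19 with an edgeR FDR of 4.38e-10 without control 1). hsa-miR-181b-3p had 0 to 19 counts and did not pass in pre-treatment (log2FC 1.54, SE 1.13, edgeR FDR 0.400).

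miRNAs linked to neuronal differentiation gave a background for these values. In co-treatment, 0 of 11 tested rose and 3 fell, beside 10.6% and 15.6% of all miRNAs: hsa-miR-137 (log2FC −1.10, edgeR FDR 0.000589), hsa-miR-9-5p (−1.06, edgeR FDR 0.0493) and hsa-miR-218-5p (−0.99, edgeR FDR 0.00803). In pre-treatment 1 of 11 rose, hsa-miR-138-5p (log2FC 1.03, edgeR FDR 0.0362), a regulator of dendritic spine size, and 0 fell, beside 5.41% and 9.91% of all miRNAs. hsa-miR-9-5p and hsa-miR-138-5p missed the threshold in the edgeR quasi-likelihood test (FDR 0.0651 and 0.0645). The list's median log2FC was −0.40 in co-treatment and 0.06 in pre-treatment, beside −0.04 and −0.19 over all miRNAs tested.

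Among miRNAs linked to redox balance and mitochondria, 0 of 12 tested rose and 3 fell in co-treatment, beside the same 10.6% and 15.6%: hsa-miR-499a-5p (log2FC −1.10, edgeR FDR 0.00157), hsa-miR-27b-3p (−0.78, edgeR FDR 0.0222) and hsa-miR-21-5p (−0.67, edgeR FDR 0.0360). In pre-treatment 1 of 12 rose, hsa-miR-21-5p (log2FC 1.53, edgeR FDR 0.000886), and 1 fell, the hypoxia-responsive hsa-miR-210-3p (−1.75, edgeR FDR 0.00492), beside 5.41% and 9.91% of all miRNAs. hsa-miR-210-3p missed the threshold in the edgeR quasi-likelihood test (FDR 0.0590). The list's median log2FC was −0.42 in co-treatment and 0.42 in pre-treatment, beside −0.04 and −0.19 over all.

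Likeness of profiles was taken as the root mean square difference of centred log2 levels over the 11 libraries, among miRNAs with a mean of at least 10 CPM, and is a description of libraries that share group and depth. The nearest to hsa-miR-181b-5p among 403 others were hsa-miR-107 (0.264), hsa-miR-641 (0.280), hsa-miR-2682-3p (0.302), hsa-miR-708-5p (0.335) and hsa-miR-339-3p (0.335), beside a median of 0.764 over all. For hsa-miR-181a-5p, whose profile rests on 1 to 11 counts, the nearest were hsa-miR-345-3p (0.407), hsa-miR-7-5p (0.445), hsa-miR-140-3p (0.452), hsa-miR-627-5p (0.455) and hsa-miR-2682-5p (0.461), at a median of 0.765 over 404. Chosen after the values were seen, the same measure for hsa-miR-181a-2-3p gave hsa-miR-191-3p (0.215), hsa-miR-3200-3p (0.252), hsa-miR-3064-5p (0.257), hsa-miR-375 (0.267) and hsa-miR-30c-2-3p (0.288), at a median of 0.686.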

How the data were processed

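Small RNA libraries of SH-SY5Y cells were grouped by their labels into 4 groups (11 libraries). The authors used cutadapt 2.10 for trimming, Bowtie2 2.4.1 for alignment to hg19 and HTSeq 0.7.2 to count mature miRNAs, and the deposited values are raw counts without normalization. The authors' own comparison tables (log fold changes, p-values and FDR) were not used. Whether molecular identifiers entered the counting is not given in the sources used here. The detection limit of 3 counts allows for counting error alone, whereas standard errors and SDs include the spread between libraries.

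edgeR 4.0.16 in R 4.3.3 was run on each experiment with TMM, the exact test and Benjamini-Hochberg adjustment over all miRNAs above the CPM equal to 5 counts of the shallowest library, required in 3 libraries for co-treatment and 2 for pre-treatment. Standard errors came from the quasi-likelihood fit. Differences between experiments came from 1 quasi-likelihood fit of all libraries. Ratios added 0.5 to each count and were tested by exact permutation. Replicate numbers were not treated as pairs in the main tests. Correlations of deviations at equal numbers were −0.18 to 0.04 in co-treatment, and 0.25 and −0.04 in pre-treatment. With 2 or 3 libraries per group they cannot settle whether the libraries were paired. Named miRNAs were the 6 members, other rows of the family or seed, called members of 2 lists (up to 4 each, by absolute log2FC) and the 5 nearest profiles; members and lists were chosen with earlier results of these data known. Alternatives were DESeq2 1.42.0, other scaling, filters, a replicate block, a GC correction and each library left out. The tests were also run on simulated counts, with the same spread for every miRNA and no divergent library. The pre-treatment controls differ from that setting, so that no result here rests on the simulation. Mature sequences were matched by name for 2262 of 2576 rows (RefSeq, GRCh38.p14 table), and positions were read from GRCh37.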

Additional observations from a re-analysis of the deposited data

Results flagged for a closer look

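The response to H2O2 differed between the experiments for 2 members and 1 relative. The test was the interaction in the quasi-likelihood fit of all 11 libraries (edgeR). It also passed 27.3% of all 945 miRNAs tested, so that a difference of this kind was not particular to the family. The difference, pre-treatment minus co-treatment on the log2 scale, was −1.01 for hsa-miR-181a-2-3p (FDR 0.0319), which was lower in 3 of 3 H2O2 libraries than in both controls of pre-treatment. It was 1.16 for hsa-miR-181c-3p (FDR 0.0321) and 1.28 for hsa-miR-181d-5p (FDR 0.0412), both higher in 3 of 3 H2O2 libraries of pre-treatment. The first pair missed the threshold in 7 of 11 fits without 1 library each, and hsa-miR-181d-5p in 8 of 11 (FDR 0.0631 to 0.159); with the replicate number as a block the FDR was 0.146, 0.130 and 0.103. For hsa-miR-181a-2-3p the controls of the experiments also differed, by 0.75. Experiment and any batch between the experiments cannot be told apart. No group had over 3 libraries, so that no library was tested as an outlier.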

How the results depend on the processing

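The 6 members are too few, and the pre-treatment controls too scarce, for the call counts to be firm. In co-treatment 0 of 5 members were called in all alternatives except without H2O2 replicate 2 (0 to 1 over the libraries left out). The 1 member called in pre-treatment became 0 with the edgeR quasi-likelihood test, without a low-count filter and with the replicate block. It became 2 with library size scaling, with DESeq2 size factors and with the quasi-likelihood fit of miRNAs with a GC value. Over all miRNAs those fits called 148 of 868, 138 of 868 and 61 of 348. The count became 3 with DESeq2 or 1 fit of both experiments, which called 135 of 868 and 150 of 945 miRNAs. It was 0 without any 1 H2O2 library. The 2 members that differed between the experiments became 0 with the replicate block (0 to 2 over the libraries left out), and the 1 that differed between controls 0 to 1. At equal replicate numbers, correlations of deviations were 0.04, −0.17 and −0.18 in co-treatment and 0.25 and −0.04 in pre-treatment. So few libraries cannot settle whether replicate numbers paired them.

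Over all miRNAs, co-treatment calls went from 207 to 84 in 1 fit of both experiments, 111 with the replicate block, 137 among miRNAs with a GC value, 38 with the GC trend removed and 98 to 279 over the libraries left out. Pre-treatment calls went from 133 to 17 with the quasi-likelihood test, 61 without a low-count filter, 15 with the block, 61 among miRNAs with a GC value, 62 with the GC trend removed (4 raised, with the median log2FC moved from −0.12 to −0.44) and 9 to 449 over the libraries left out. With that trend removed, the pre-treatment log2FC of hsa-miR-181b-5p was 0.46 (0.91 for the same miRNAs without the correction), that of hsa-miR-181d-5p 0.15 (0.73) and that of hsa-miR-181a-2-3p −1.28 (−1.30). For hsa-miR-181d-3p the difference between the controls, 0.32, turned to −1.33 once pre-treatment control 1 was left out and came to 1.08 with control 2 left out. The pre-treatment log2 difference of the ratio of hsa-miR-181a-2-3p to hsa-miR-181a-3p ranged from −2.14 to −1.14 over the libraries left out, and that of the summed 3p level from −1.01 to −0.55. Of the results for single miRNAs, 366 kept their side of the threshold, 45 lost and 25 gained a call, and 1 turned direction with a call in either fit. Changes of sign without a call in either fit were counted among the 366. An example is the pre-treatment log2FC of hsa-miR-181a-3p, which went from 0.37 to −0.17 without control 1. The causes of these shifts were not tested. hsa-miR-181a-5p, at 1 to 11 counts, had an SE of 0.80 for its pre-treatment log2FC, the widest of the members.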
